A study of Mus musculus with 6 samples.

Results

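Steroid synthesis from cholesterol was followed in mouse ovarian tumours through the genes of its carriers and enzymes. The genes were picked by symbol from a list of 10, and each had to be named alone by the platform annotation of a probe set. Of the 10, 8 were measured (Scarb1, Star, Cyp11a1, Fdx1, Hsd3b1, Hsd3b6, Cyp17a1 and Hsd17b1), each by 1 probe set, out of 19937 genes. Cyp19a1, the aromatase gene, and Fdxr, the gene of ferredoxin reductase, had no such probe set and were not analysed here. The tumours came from MASE2 cells, injected into SCID mice that received a pellet of 17β-estradiol (E2, 3 mice) or of placebo (3 mice) at the same time. All 6 tumours share the origin of the cells, ascites of a tgCAG-LS-TAg mouse that had itself been given E2. In that model an adenovirus carrying Cre is injected into the ovarian bursa, and SV40 large and small T antigens are then switched on in the ovarian surface epithelium. The host mice lack mature T and B cells, tumours were taken at a loss-of-wellness endpoint and not on a fixed day, and no pellet dose or age of the mice is given in the sources used here.

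Steroid hormones are made from cholesterol in a fixed order. Cells take up cholesterol from lipoproteins, STAR brings it to the inner mitochondrial membrane, and CYP11A1 cuts its side chain to yield pregnenolone with electrons passed on by ferredoxin. 3-beta-hydroxysteroid dehydrogenases turn pregnenolone into progesterone, CYP17A1 opens the way to androgens, and aromatase with 17-beta-hydroxysteroid dehydrogenase type 1 makes estradiol. In the ovary these steps are spread over theca, granulosa and luteal cells, and the surface epithelium is not known as a main site of them.

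All 8 measured genes had a higher mean in the E2 tumours, and 4 of them, Cyp11a1, Fdx1, Hsd3b1 and Hsd3b6, rose past the threshold, a limma p under 0.05 after Benjamini-Hochberg adjustment over all genes. The same rule called 1.06% of all genes higher and 0.326% lower, and 0 of the 8 were called lower; at an unadjusted limma p under 0.05 all 8 were higher, as were 10.4% of all genes. In each of the 8 every E2 array lay above every placebo array, which held for 14.9% of all genes. The log2 changes (E2 minus placebo) ran from 0.59 to 4.26 with a median of 1.18, against a median of -0.01 over all genes. An exact two-sided permutation test of any 1 of these genes gave p = 0.10, the smallest value that 3 arrays against 3 allow.

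**Figure D1:**
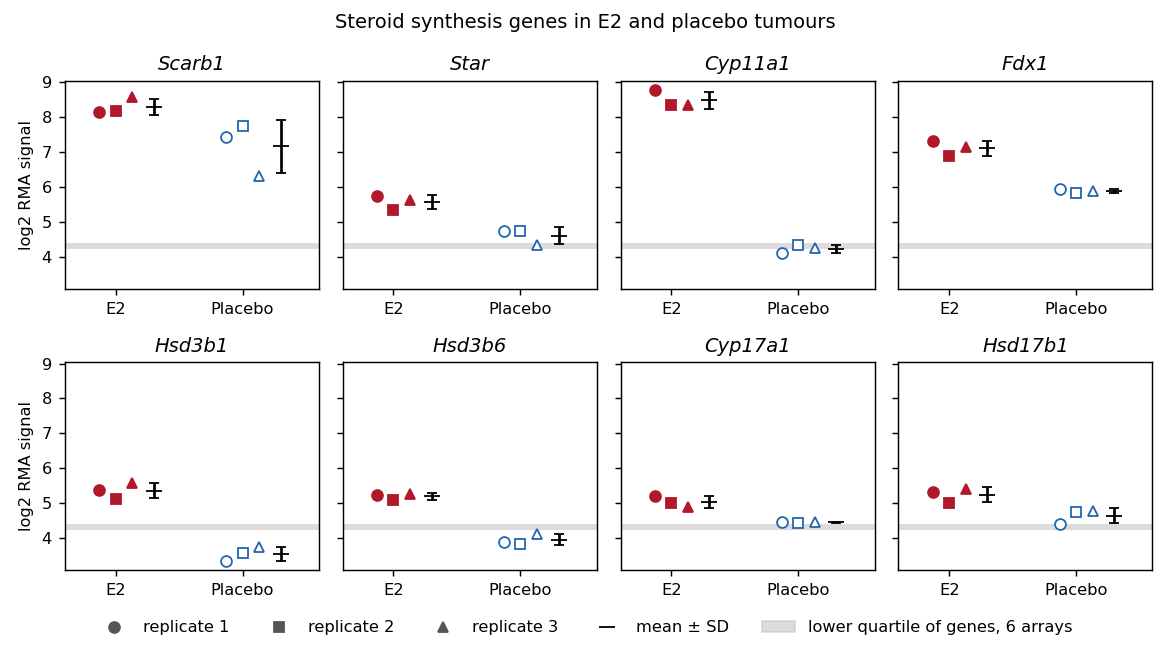
Log2 RMA signal (vertical axis) of the 8 measured genes on each array, with E2 tumours as filled red symbols at the left of each panel and placebo tumours as open blue symbols at the right. Black marks give the mean ± SD (n = 3), and the grey band spans the lower quartile of genes on the 6 arrays (4.22 to 4.39). In each panel the 3 E2 values stand above the 3 placebo values.

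Values are log2 signals from whole-transcript arrays, summarised by the authors with RMA, so 1 unit is a doubling, and the number of arrays limits their precision. The 6 arrays had medians of 4.84 to 4.97 over their 34760 probe sets. The array of placebo replicate 3 stood apart, with a Pearson r over genes of 0.857 to 0.865 with the others, against 0.960 to 0.994 among those. The 14 intestinal epithelium markers summed to 60.8 to 63.5 log2 units in the E2 tumours and, among placebo tumours, to 61.2 and 62.0 in replicates 1 and 2 and 134.4 in replicate 3. Their part in the results was not tested, and the calls of the synthesis genes and the counts of the gene lists are given with and without placebo replicate 3. Of 12 ovarian surface epithelium markers, 0 were under the lower quartile of genes on any array. These are whole tumours, in which a change in the share of cells of a type and a change in RNA per cell cannot be told apart.

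Cyp11a1, the enzyme that commits cholesterol to steroid synthesis, changed the most of the 8. Its probe set (10585794) measured 8.76, 8.33 and 8.35 in E2 replicates 1, 2 and 3, against 4.10, 4.33 and 4.24 in placebo replicates 1, 2 and 3. The lowest E2 value stood 4.0 log2 units above the highest placebo value. The SD among the E2 tumours was 0.24, the largest of the 8 genes. The log2 change was 4.26 (SE 0.14, 95% confidence interval 3.91 to 4.61, limma adjusted p = 0.000442), ranking second of the 19937 genes by size. In the placebo tumours Cyp11a1 was under the lower quartile on 2 of the 3 arrays and near it on the third, and with these raised to the quartile the difference was 4.14. Cyp11a1 kept its call whichever array was left out, with changes between 4.12 and 4.33.

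Fdx1 encodes ferredoxin, the iron-sulphur protein that hands electrons to CYP11A1 and other mitochondrial P450 enzymes. It measured 7.30, 6.87 and 7.13 in the E2 tumours, against 5.95, 5.82 and 5.88 in the placebo tumours (probe set 10593483, replicates in order). All placebo values fell within a narrow range (SD 0.067), the lowest E2 value lay 0.92 above it, and placebo replicate 3 sat between the other placebo tumours. Fdx1 rose 2.33-fold (log2 change 1.22, SE 0.13, 95% confidence interval 0.91 to 1.53, limma adjusted p = 0.0163). The call was lost without E2 replicate 1, E2 replicate 3 or placebo replicate 1, where the change was 1.12, 1.21 and 1.26.

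To show what lies in front of the genes that rose, their RefSeq promoter windows (assembly GRCm38.p6, 250 bases before to 50 after a start site) are given 5′ to 3′ on the gene's strand. Capitals mark a core motif of nuclear receptor binding, AGGTCA, or a GATA site, GATAA, on either strand.
Cyp11a1, start at the gene boundary, chr9:57997774-57998073, plus strand: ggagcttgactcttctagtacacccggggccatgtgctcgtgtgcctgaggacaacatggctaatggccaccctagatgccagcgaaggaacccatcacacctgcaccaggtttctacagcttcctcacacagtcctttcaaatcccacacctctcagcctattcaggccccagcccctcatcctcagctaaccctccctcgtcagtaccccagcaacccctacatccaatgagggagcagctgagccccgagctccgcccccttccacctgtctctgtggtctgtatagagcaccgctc
Cyp11a1, second start, chr9:58014702-58015001, plus strand: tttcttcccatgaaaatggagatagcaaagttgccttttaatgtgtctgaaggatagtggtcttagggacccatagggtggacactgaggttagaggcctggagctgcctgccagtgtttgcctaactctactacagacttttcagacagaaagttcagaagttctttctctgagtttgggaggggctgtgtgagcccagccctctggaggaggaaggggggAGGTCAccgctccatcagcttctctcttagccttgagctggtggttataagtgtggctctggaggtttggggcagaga
Fdx1, chr9:51963553-51963852, minus strand: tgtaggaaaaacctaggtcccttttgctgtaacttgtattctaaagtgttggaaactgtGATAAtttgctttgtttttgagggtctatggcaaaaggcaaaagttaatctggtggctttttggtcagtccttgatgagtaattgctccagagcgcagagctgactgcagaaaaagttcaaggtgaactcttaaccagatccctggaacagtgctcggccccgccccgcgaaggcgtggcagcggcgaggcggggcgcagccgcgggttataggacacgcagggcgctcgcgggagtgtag
The second Cyp11a1 window holds AGGTCA from 28 bases before the start, and the Fdx1 window holds GATAA from 191 bases before it. Both motifs are common, AGGTCA in 16.3% and GATAA in 25.4% of the 32851 windows of the table. The longer site CAAGGTCA of steroidogenic factor 1, which contains AGGTCA, occurs in 1.56% of all windows, the cAMP response element TGACGTCA in 1.79% and the palindromic oestrogen response element (GGTCA and TGACC, 3 bases apart) in 0.0700%. The table holds 9 windows for 6 of the 10 listed genes (Cyp11a1, Cyp19a1, Fdx1, Fdxr, Hsd3b1 and Hsd3b6), and 0 of the 9 contain any of these 3 motifs. Only exact matches to these letters on either strand were counted, so variant sites were not looked for.

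Hsd3b1 and Hsd3b6 encode 3-beta-hydroxysteroid dehydrogenases, the enzymes that convert pregnenolone to progesterone. In mice HSD3B1 is the form of ovary and adrenal gland, while HSD3B6 is known from adult Leydig cells. Hsd3b1 (probe set 10500565) measured 5.39, 5.13 and 5.57 in E2 replicates 1 to 3, against 3.34, 3.58 and 3.74 in placebo replicates 1 to 3. Hsd3b6 (probe set 10500559) measured 5.23, 5.09 and 5.27 in the E2 tumours, against 3.89, 3.83 and 4.13 in the placebo tumours. For both genes all placebo values were under the lower quartile, so the placebo tumours were not shown to be above background, while every E2 value was above that quartile. As measured, Hsd3b1 rose by 1.81 on the log2 scale (SE 0.16, limma adjusted p = 0.00817) and Hsd3b6 by 1.24 (SE 0.11, limma adjusted p = 0.00921). With placebo values raised to the quartile of their array, Hsd3b1 was 2.03-fold and Hsd3b6 1.81-fold higher with E2. The 95% confidence intervals of these floored differences were 0.72 to 1.33 log2 for Hsd3b1 and 0.68 to 1.03 log2 for Hsd3b6.

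The calls of this pair changed with the array left out, while the size of the changes moved little. With any 1 array left out, Hsd3b1 rose by 1.70 to 1.92 log2 and Hsd3b6 by 1.19 to 1.33. Fits without 1 of the E2 tumours called 31 to 37 of all genes higher, against 211 on all 6 arrays. Hsd3b1 lost its call without E2 replicate 1 or E2 replicate 3 (limma adjusted p up to 0.0830), and Hsd3b6 lost it without any 1 of the 3 E2 tumours or without placebo replicate 1 (up to 0.0850). Both kept it without placebo replicate 3, at 1.90 and 1.33 log2. The 2 genes are close relatives, and probes of one may bind transcripts of the other, so their separate values are uncertain. Of their other measured relatives, Hsd3b2 differed by -0.02 (95% confidence interval -0.32 to 0.28), Hsd3b3 by -0.24 (-0.97 to 0.49) and Hsd3b5 by 0.02 (-0.40 to 0.45), all below the lower quartile on every E2 array. Hsd3b7, whose enzyme acts in bile acid synthesis, lay between 6.25 and 6.37 on all 6 arrays and differed by 0.04 (-0.15 to 0.22).
The promoter windows of the pair are set side by side because the 2 genes lie near each other on chromosome 3 and rose together.
Hsd3b1, chr3:98859745-98860044, minus strand: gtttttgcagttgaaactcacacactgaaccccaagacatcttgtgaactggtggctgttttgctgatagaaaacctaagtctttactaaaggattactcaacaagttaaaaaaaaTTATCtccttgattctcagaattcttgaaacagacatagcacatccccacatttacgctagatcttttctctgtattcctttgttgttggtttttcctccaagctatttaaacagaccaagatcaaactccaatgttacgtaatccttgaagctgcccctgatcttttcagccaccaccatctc
Hsd3b6, chr3:98814394-98814693, minus strand: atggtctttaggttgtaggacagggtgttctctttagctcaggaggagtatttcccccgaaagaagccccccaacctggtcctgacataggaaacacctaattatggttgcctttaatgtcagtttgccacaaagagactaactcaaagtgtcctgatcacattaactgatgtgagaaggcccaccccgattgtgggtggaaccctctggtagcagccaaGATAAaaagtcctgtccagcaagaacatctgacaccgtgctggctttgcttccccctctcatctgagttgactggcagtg
Each window holds 1 GATA site, from 134 bases before the start on the opposite strand in Hsd3b1 (read there as TTATC) and from 30 bases before it in Hsd3b6.

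Scarb1 and Star stand at the entry of the pathway. Scarb1, the HDL receptor through which steroidogenic cells take up cholesteryl esters, measured 8.16, 8.16 and 8.57 in the E2 tumours, against 7.44, 7.74 and 6.30 in the placebo tumours (probe set 10533929). Its placebo spread (SD 0.76) was the widest of the 8 genes, and the low value was that of placebo replicate 3. The difference of 1.14 log2 (95% confidence interval 0.21 to 2.07) did not pass (limma adjusted p = 0.226). Without placebo replicate 3 it was 0.71 (0.35 to 1.07) and passed (limma adjusted p = 0.0248). Scarb1 is thus the gene of the 8 whose value moved most with that array.

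Star, the carrier whose delivery of cholesterol limits acute steroid output, measured 5.73, 5.34 and 5.63 in the E2 tumours, against 4.73, 4.75 and 4.32 in the placebo tumours (probe set 10571054). Again placebo replicate 3 was the lowest, under the lower quartile of its array. Star was 0.97 log2 units higher (95% confidence interval 0.57 to 1.37) but missed the threshold (limma adjusted p = 0.0595). With placebo replicate 3 left out, the difference was 0.83 and passed (limma adjusted p = 0.00586), whereas no other array left out gave a call.

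Cyp17a1 and Hsd17b1, of the later steps towards androgen and estradiol, had the smallest differences of the 8 on all 6 arrays. Their confidence intervals overlapped those of Star and Scarb1, and aromatase was not measured. In the fit without placebo replicate 3, Scarb1 differed by 0.71 log2, close to Hsd17b1. Cyp17a1, the 17-alpha-hydroxylase and lyase of theca and Leydig cells, measured 5.21, 5.0 and 4.89 with E2, against 4.45, 4.42 and 4.47 with placebo (probe set 10468239). The placebo values agreed closely (SD 0.022), yet all lay just above the lower quartile of genes. The difference was 0.59 log2 (95% confidence interval 0.33 to 0.84, limma adjusted p = 0.0649). Hsd17b1, which reduces estrone to estradiol in granulosa cells, measured 5.32, 5.01 and 5.40 with E2, against 4.40, 4.74 and 4.79 with placebo (probe set 10381218). Here the gap between the groups was the smallest of the 8, 0.22 log2 units from the highest placebo to the lowest E2 value. The difference was 0.60 log2 (95% confidence interval 0.22 to 0.98, limma adjusted p = 0.143). Without placebo replicate 3 both passed, Cyp17a1 at 0.60 (limma adjusted p = 0.0149) and Hsd17b1 at 0.68 (limma adjusted p = 0.0262).

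**Figure D2:**
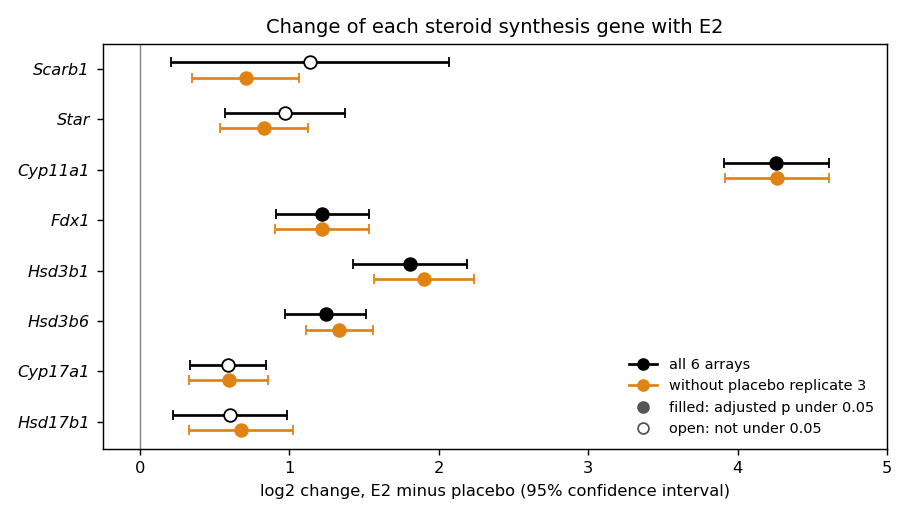
Log2 change (E2 minus placebo, horizontal axis) of the 8 genes from uptake at the top to estradiol synthesis at the bottom, with 95% confidence intervals, on all 6 arrays (black) and without placebo replicate 3 (orange). Filled points had a limma adjusted p under 0.05: 4 of 8 on 6 arrays and 8 of 8 without placebo replicate 3. On all 6 arrays the interval of Cyp11a1 (3.91 to 4.61) lies beyond those of the other 7 genes, which end at 2.19 or below.

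E2 replicate 2 was the lowest E2 tumour for 6 of the 8 genes, which held for 43.1% of all genes, and the difference between these shares was not tested. Among placebo tumours, replicate 3 was the lowest for 2 genes (Star and Scarb1) and the highest for 4 (Hsd3b1, Hsd3b6, Cyp17a1 and Hsd17b1). Without placebo replicate 3 all 8 genes were called higher, in a fit that called 6.40% of all genes higher and 5.21% lower. The median change of the 8 was then 1.02 log2, against -0.01 over all genes. Leaving out any 1 of the other arrays left between 1 and 4 of the 8 genes called, and Cyp11a1 was among them each time. Those fits called 0.155% of all genes higher without E2 replicate 1, 0.186% without E2 replicate 2 or 3, 0.311% without placebo replicate 1 and 0.853% without placebo replicate 2.

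**Figure D3:**
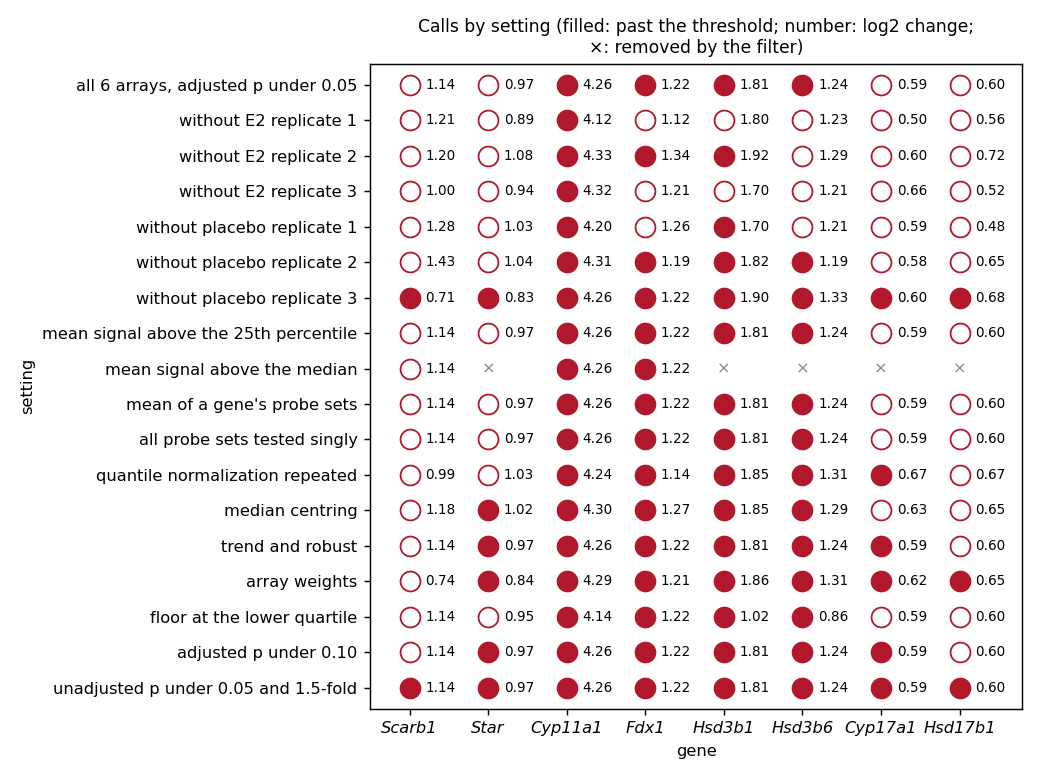
Calls of the 8 genes (columns) under each setting (rows) except the replicate number as a block, with the log2 change (E2 minus placebo) beside each point. With that block, not drawn here, only Cyp11a1 was called. Filled points passed the threshold of that setting, and a cross marks a gene that the filter on dim genes removed. The Cyp11a1 column is filled throughout (4.12 to 4.33), and no gene has a negative change.

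No gene for cholesterol supply passed the test on 6 arrays. Of 16 measured genes for cholesterol uptake, storage, release and transport to mitochondria, 0 were called in either direction by limma, with 2 higher and 3 lower at an unadjusted p under 0.05, and the median change was 0.10 log2. At that unadjusted limma p, 2069 of all 19937 genes were higher and 1229 lower. The smallest p belonged to Abca1, the pump that exports cholesterol to apolipoproteins. It measured 6.94, 6.52 and 7.15 with E2, against 8.04, 8.09 and 7.48 with placebo, a difference of -1.0 log2 (limma adjusted p = 0.110). Tspo, an outer mitochondrial membrane protein that binds cholesterol, was 0.62 log2 units higher (limma adjusted p = 0.138). Without placebo replicate 3, Tspo, Stard4 and Nceh1 were called higher and Abca1, Abcg1 and Lipe lower, names read off after their values were seen. That fit called 6.40% of all genes higher and 5.21% lower.

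Among 17 other measured steroid enzymes and redox partners, Akr1c18 rose and the other 16 did not pass, with a list median of 0.00 log2. Akr1c18, the 20-alpha-hydroxysteroid dehydrogenase that inactivates progesterone, measured 9.24, 8.87 and 8.93 in the E2 tumours, against 3.83, 3.97 and 4.03 in the placebo tumours. Its placebo values were below the lower quartile on all 3 arrays, and the change against that floor was 4.68 log2 (limma adjusted p = 0.000223 on the measured values). Akr1c18 kept its call whichever array was left out. The adrenal enzymes Cyp21a1, Cyp11b1 and Cyp11b2, which lead to corticosteroids, differed by -0.10, 0.00 and 0.02 log2. Without placebo replicate 3, Hsd17b7 (0.45 log2) and Hsd17b12 (0.85 log2), picked out after their values were seen, were called with Akr1c18. That fit called 6.40% of all genes higher.

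Regulators of steroidogenic genes included 4 that rose out of 25 measured, with 0 called lower and a median of 0.30 log2. Nr5a1 encodes steroidogenic factor 1, the nuclear receptor that drives transcription of most genes in this pathway. It measured 7.95, 7.27 and 7.64 with E2, against 5.11, 5.02 and 5.40 with placebo, and rose by 2.45 on the log2 scale (limma adjusted p = 0.00731). Its lowest E2 value was in replicate 2, as for 6 of the 8 synthesis genes and 43.1% of all genes. A part of Nr5a1 in the changes of the synthesis genes was not tested. Nr0b2, a corepressor without a DNA-binding domain that restrains such receptors, rose by 1.28 (limma adjusted p = 0.00708), and Gata4, a partner of steroidogenic factor 1, rose by 1.61 (limma adjusted p = 0.0136). Without E2 replicate 3 Nr5a1 did not pass (limma adjusted p = 0.0674), and without any 1 of the E2 tumours neither Nr0b2 (0.0560 to 0.0699) nor Gata4 (0.0712 to 0.10) passed. Cebpb, a factor induced by gonadotropin and cAMP signals, rose by 0.56 (limma adjusted p = 0.0488). That call was at the edge of the threshold, since it was lost whenever an array other than placebo replicate 3 was left out (limma adjusted p = 0.115 to 0.238). Without placebo replicate 3 the regulators had 10 called higher and 2 lower, and their median was 0.12 log2. Of all genes, that fit called 6.40% higher and 5.21% lower, and the fit on all 6 arrays 1.06% and 0.326%.

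**Figure D4:**
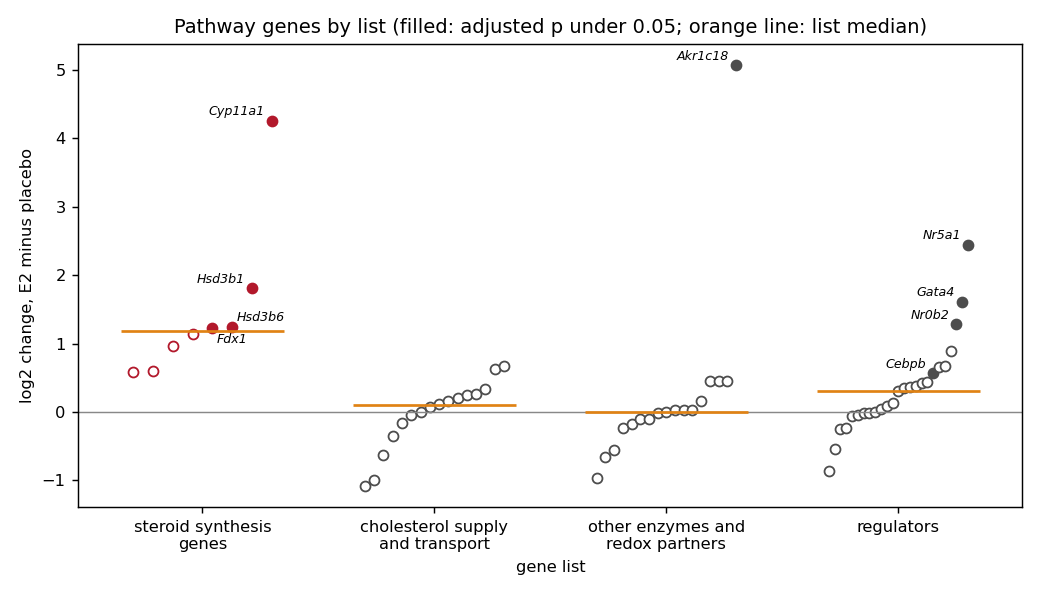
Log2 change (E2 minus placebo, vertical axis) of every measured gene in 4 lists, each point a gene, filled where the limma adjusted p was under 0.05, with the list median in orange. All 8 synthesis genes lie above 0 (median 1.18), while the other lists spread to both sides of 0 with medians of 0.10, 0.00 and 0.30.

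Markers of steroid-making cell types moved unevenly. Of 9 granulosa markers, Inha (3.81), Inhbb (2.84), Gja1 (2.28) and Inhba (1.47 log2) rose in limma, while Foxl2 and Fshr each differed by -0.01 and Amh by -0.18. Fst was lower with E2, by -0.27 log2 (95% confidence interval -0.48 to -0.06), but did not pass (limma adjusted p = 0.208). Nr5a2 differed by 0.30 (limma adjusted p = 0.728). Fshr, the receptor that defines granulosa cells, lay below the lower quartile on all 6 arrays. The summed log2 level of this list was 58.2 to 59.9 in the E2 tumours and 47.7 to 49.3 in the placebo tumours. Of 8 adrenal cortex markers, Frzb rose (2.65 log2), the other 7 did not pass, and Mc2r, the corticotropin receptor, lay below the lower quartile on all 6 arrays. The adrenal list summed to 38.8 to 39.8 with E2. With placebo it summed to 34.4 and 35.4 in replicates 1 and 2 and to 39.5 in replicate 3, where Ephx2 measured 7.63. Beside the synthesis genes themselves, the luteal list held Akr1c18, which rose, Sfrp4 (4.23 log2, limma adjusted p = 0.0694, and 3.62 log2 with limma adjusted p = 0.00742 without placebo replicate 3) and Ptgfr, which lay below the lower quartile on all 6 arrays, and it summed to 49.0 to 51.1 with E2 and 30.9 to 35.4 with placebo. In the theca and Leydig list, Thbs2 rose by 2.35 and Hsd17b3, the testicular enzyme of testosterone synthesis, lay below the lower quartile on all 6 arrays, with sums of 23.1 to 23.8 with E2 and 19.3 to 19.5 with placebo. The only placental marker measured outside the synthesis genes, Tpbpa, differed by -0.11. With placebo replicate 3 left out, limma called 5 of the 9 granulosa and 6 of the 7 luteal markers higher. It also called 3 of the 4 theca and Leydig and 2 of the 8 adrenal markers higher. On all 6 arrays these counts were 4, 3, 2 and 1. Of all genes, the fits called 6.40% and 1.06% higher, in that order. The luteal counts and sums include Star, Cyp11a1, Hsd3b1 and Scarb1, and those of theca and Leydig include Cyp17a1 and Hsd3b6. Both lists thus in part repeat the synthesis genes. In none of these 4 lists was a gene called lower in either fit.

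Marker lists of several other cell types had lower sums in the E2 tumours. The ovarian surface epithelium list summed to 76.2 to 78.9 log2 units with E2 and 88.6 to 92.5 with placebo. Within it the keratin gene Krt7 fell by 2.36 on the log2 scale and Gata4 rose. The 11 macrophage markers summed to 68.1 to 73.1 with E2 and 73.8 to 83.4 with placebo, with 2 that fell (Ptprc and Ctss), and the 6 adipocyte markers to 26.2 to 27.1 and 29.6 to 32.0, with 1 that fell (Adipoq). The 10 liver markers summed to 40.5 to 42.0 with E2. With placebo they summed to 43.2 and 44.7 in replicates 1 and 2 and to 60.5 in replicate 3. In placebo replicate 3 Apoa1 measured 12.1 and Cps1 10.1, while Alb measured 4.12 and 3 of the 10 lay under the lower quartile. With that array left out, Cyp2e1 differed by -1.71 log2, and the other liver markers by between -0.31 and 0.30. In the fit without placebo replicate 3, limma called 9 of the 11 macrophage and 5 of the 6 adipocyte markers lower. The same fit called 5 of the 12 surface epithelium and 1 of the 10 liver markers (Cyp2e1) lower. On all 6 arrays these counts were 2, 1, 1 and 0. Of all genes, the fits called 5.21% and 0.326% lower, in that order. The part of any of these cell types in the changes of the synthesis genes was not tested.

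The profiles closest to 2 of the genes were sought among all genes, by the root mean square difference of log2 values over the 6 arrays after centring each gene on its mean. For Cyp11a1 the 5 closest were Inha (0.28), Kctd14 (0.35), Akr1c18 (0.41), Greb1 (0.47) and Qrfprl (0.48). The closest synthesis gene, Hsd3b1, ranked 60th at 1.24, since this measure counts the size of a change as well as its shape. For Star the 5 closest were Scap (0.072), Rmnd5b (0.11), 1700017B05Rik (0.11), Gprc5c (0.12) and Frmd5 (0.12). Each was lowest in placebo replicate 3, as Star was, a likeness that the measure itself favours. Fdx1 was the synthesis gene closest to Star (0.19, rank 89).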

How the data were processed

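RNA of 6 tumours, 3 E2 and 3 placebo as their titles say, was hybridised to 1 whole-transcript array each. The authors deposited log2 intensities, 1 for each probe set and array; RMA produced them, according to the submitters' processing notes. RMA levels the arrays' distributions and compresses changes near background; its software, annotation and genome build are unstated here.

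Of 34760 probe sets, 21640 carried 1 gene symbol in the platform annotation, 1321 several, and 11799 are unnamed here. Gene identifiers of 21553 were found in RefSeq (GRCm38.p6, names only), with 0 symbols altered. For genes with several probe sets the brightest by mean was kept, giving 19937 genes. No dim gene was removed, 0 sample columns stayed unmapped, and 0 pairs of arrays were identical. Without detection calls, the lower quartile of genes on each array served as a floor, as in an earlier analysis of these values.

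The groups were compared by limma 3.58.1 (R 4.3.3), two-sided, without covariates, adjusted over all genes. P-values measure the spread between tumours. In simulated data on 19937 genes with 200 changed, the fit found 65.0% of those changed by 1 log2 unit and 91.0% of those changed by 2, and made 10 false calls. Its noise was normal and independent between arrays, with each gene's within-group SD on every array. An outlying array such as placebo replicate 3 was not simulated, so these rates may not hold for the real arrays.

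Genes and lists were chosen with earlier results of these data known. All synthesis genes are named; from each wider list, called genes up to 6 by p, or else the 2 of smallest p. Other names were picked after their values were seen. Alternatives were each array left out, the replicate number as a block, 2 filters on dim genes, mean or single probe sets, repeated quantile normalization, median centring, trended and robust variance, array weights and 2 other thresholds; the floor in the fit was added after seeing the data.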

Additional observations from a re-analysis of the deposited data

How the results depend on the processing

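The 8 synthesis genes kept a positive change under every setting that gave a value, and Cyp11a1 alone was called under each. Counts moved more. With each array left out in turn, 1 to 8 synthesis genes were called, 1 to 21 genes of the 3 wider pathway lists (5 on all arrays), and over all genes 31 to 1276 higher and 0 to 1039 lower (211 and 65 on all arrays). The 0 was without E2 replicate 1, where limma gave 917 genes lower at an unadjusted p under 0.05. The count of 4 synthesis genes became 1 without E2 replicate 1 or 3, 2 without placebo replicate 1 and 8 without placebo replicate 3. Array weights called 7 synthesis genes, 17 list genes and 1026 higher and 760 lower genes. Median centring called 342 genes higher. A filter at the median signal removed Star, Hsd3b1, Hsd3b6, Cyp17a1 and Hsd17b1 and left 2 synthesis genes called. It left 3 list genes called, since Nr0b2 was removed and Cebpb, which was kept, had a limma adjusted p of 0.0689. Cebpb also lost its call with a filter at the lower quartile (0.0572), probe sets tested singly (0.0505), quantile normalization repeated (0.220), median centring (0.0515) and a trended robust fit (0.116). An adjusted p under 0.10 gave 543 higher, 193 lower and 8 list genes. An unadjusted p under 0.05 with a 1.5-fold change gave 769, 455 and 14, with 8 synthesis genes. Causes other than the genes that the filter removed and these thresholds were not tested. Same-numbered tumours were not alike in their deviations from the group mean (correlations -0.03, -0.18 and -0.13). E2 replicate 3 went best with placebo replicate 2 (0.24). Deviations within a group of 3 depend on each other, and placebo replicate 3 stood apart, so these values cannot exclude a pairing. With the replicate number as a block, 1 synthesis gene (Cyp11a1), 1 list gene, and 10 higher and 0 lower genes were called in limma (886 lower at an unadjusted p under 0.05). Values near the lower quartile, as in the placebo tumours for Cyp11a1, Hsd3b1 and Hsd3b6, limit how far those folds can be read.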
